A study of Homo sapiens with 6 samples.

Results

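Genes for alpha tubulins and for proteins that govern tubulin supply, 10 in all, were followed through a drug treatment: the alpha tubulins TUBA1A, TUBA1B, TUBA1C and TUBA4A, the tubulin mRNA decay factor TTC5, and the tubulin cofactors TBCA, TBCB, TBCC, TBCD and TBCE. They were chosen by name, for their roles, with earlier results of these data known. They are 10 of the 58336 genes in the count table, where each was found by its symbol. A2780 cells, an established ovarian cancer line, were treated for 48 h with 0.1% DMSO, the solvent, or with 6 µM TH588, an early inhibitor of the nucleotide-cleaning enzyme MTH1 that also arrests cells in mitosis. Polyadenylated RNA of 3 biological replicates per treatment, lettered A, B and C, was sequenced, 6 libraries in all from this single line, and reads were counted per gene. No other dose or time enters the comparison.

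Microtubules are built from dimers of 1 alpha and 1 beta tubulin. Newly made tubulins are folded with the help of prefoldin and the CCT chaperonin and then passed to the cofactors TBCA to TBCE, which assemble the dimer and can also take it apart. Cells tune their tubulin mRNAs to the free dimer: when free dimer is plentiful, TTC5 binds the first residues of the growing chain on the ribosome and, through SCAPER, brings in the CCR4-NOT deadenylase, so that the mRNA is destroyed. Isotypes of alpha tubulin differ little in their protein and mostly in when and where their genes are used.

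The stretch of coding sequence that TTC5 reads as protein is shown because it is the feature the 4 alpha tubulins share with this decay pathway. Each line gives the first 30 coding bases in GRCh38, with the first 12 bases in capitals, which encode methionine, arginine, glutamate and cysteine. The start codon lies in a different exon from the bases after it, at chr12:49188977-49188979 and chr12:49186807-49186833 for TUBA1A (minus strand), chr12:49131298-49131300 and chr12:49129696-49129722 for TUBA1B (minus strand), chr12:49265182-49265184 and chr12:49269465-49269491 for TUBA1C (plus strand), and chr2:219253856-219253858 and chr2:219252204-219252230 for TUBA4A (minus strand).
TUBA1A: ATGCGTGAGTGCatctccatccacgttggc
TUBA1B: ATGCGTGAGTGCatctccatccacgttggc
TUBA1C: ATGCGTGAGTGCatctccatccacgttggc
TUBA4A: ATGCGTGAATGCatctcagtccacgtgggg
The 30 bases were the same in TUBA1A, TUBA1B and TUBA1C. Within the first 12, TUBA4A carried G9A against TUBA1B, counted from 1 at the A of the start codon, and this change leaves the glutamate codon a glutamate codon.

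Total counts were between 83144642 and 98176722 in the DMSO libraries and between 28537837 and 99074175 with TH588. In TH588 replicate A, the shallowest library, the small nucleolar RNA SNORD3A took 21.9% of all counts, against 7.68% to 13% in the others. Of 10 markers listed for A2780 and epithelial cells, 6 were under 1 CPM (counts scaled to a common library total) in every library, among them PAX8 and WT1, while VIM ran from 3122 to 4445 CPM. EPCAM, an epithelial marker, ran from 0.475 to 0.845 CPM with DMSO and from 4.06 to 5.45 CPM with TH588. Of 9 markers listed for other cell types, 5 were under 1 CPM everywhere, with CD3E at 0, whereas the collagen gene COL3A1 ran from 1504 to 2855 CPM. The summed levels were 3210 to 3720 CPM with DMSO and 3144 to 4470 CPM with TH588 for the first list, and 1516 to 1892 and 1756 to 2868 CPM for the second. Their part in the results was not tested. These are bulk samples, in which a smaller share of cells with a transcript and less of it per cell cannot be told apart.

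After TH588, TUBA1B and TUBA1C, the most abundant alpha tubulin transcripts with DMSO, fell to 0.452 and 0.414 of their DMSO level, while TUBA1A rose 1.5-fold. TTC5 and the cofactors TBCA, TBCB and TBCD were lower by smaller amounts, and TUBA4A, TBCC and TBCE did not pass the test. In all, 1 of the 10 genes rose and 6 fell by the test used, an adjusted p under 0.05 (edgeR's quasi-likelihood test, Benjamini-Hochberg adjustment over the 15844 genes that passed the filter on low counts). The background is high, since 49.6% of all genes tested were called in either direction, 24.2% as higher and 25.3% as lower. The 3 DMSO and 3 TH588 values did not overlap in 7 of the 10, against 57.7% of all genes tested. The median log2 fold change of the 10 was -0.22, beside 0.019 over all genes tested. Each of the 10 passed the filter on low counts, TUBA4A only through its TH588 libraries.

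**Figure D1:**
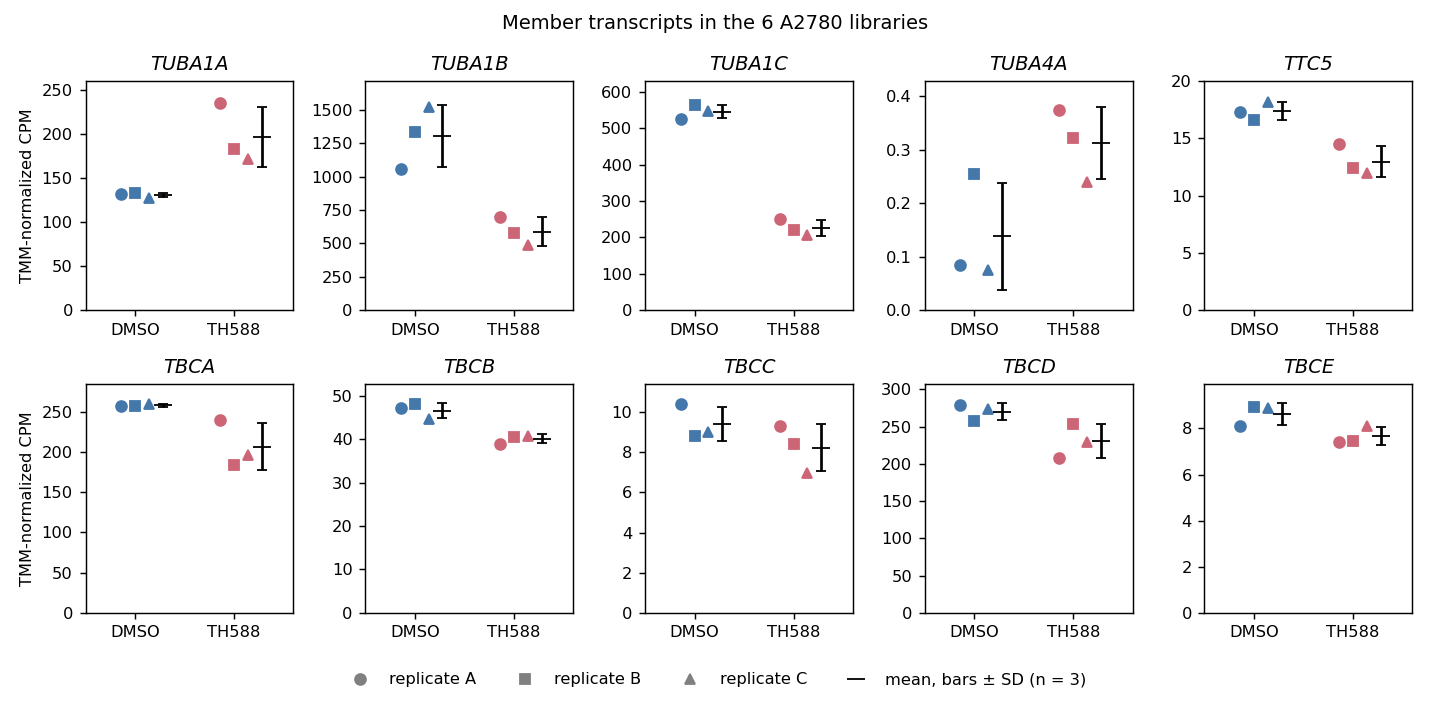
Each panel shows 1 gene in the 6 libraries as TMM-normalized CPM on an axis that starts at 0, with 1 point per library (circle, square and triangle for replicates A, B and C) and the mean with SD bars beside them. With TH588, TUBA1B lies between 487 and 701 CPM and TUBA1C between 206 and 251 CPM, below all DMSO points, and TUBA1A lies between 172 and 236 CPM, above all DMSO points.

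TUBA1B (ENSG00000123416) is a broadly used alpha tubulin isotype, on the minus strand of chromosome 12 in GRCh38 from 49127782 to 49131397. Its level, as CPM scaled by edgeR's TMM method, was 1056, 1332 and 1521 with DMSO and 701, 577 and 487 with TH588 in replicates A, B and C. Every TH588 library was below every DMSO library. The mean went from 1303 ± 234 to 589 ± 108 CPM (SD, n = 3 each), which is -1.15 as a log2 fold change (95% interval -1.46 to -0.83, edgeR adjusted p = 4.08e-05). TUBA1B also varied widely within a treatment: its coefficient of variation was 17.9% over the DMSO libraries, where that of TUBA1C was 3.47%.

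TUBA1C (ENSG00000167553), a second widely expressed isotype, lies on the plus strand of chromosome 12 from 49188736 to 49274603. It was measured at 526, 564 and 547 CPM with DMSO and 251, 221 and 206 CPM with TH588. The groups were far apart, with the highest TH588 library below all DMSO libraries and little spread in either. The mean went from 546 ± 18.9 to 226 ± 22.8 CPM (SD, n = 3 each), and the log2 fold change of -1.27 (95% interval -1.47 to -1.08, edgeR adjusted p = 3.92e-07) was the lowest of the 10, with an interval that overlapped that of TUBA1B.

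TUBA1A (ENSG00000167552), the isotype best known from developing neurons and from brain malformations, lies on the minus strand of chromosome 12 from 49184796 to 49189324. It was measured at 132, 133 and 128 CPM with DMSO and 236, 183 and 172 CPM with TH588. All TH588 libraries were above all DMSO libraries, and replicate A was the highest. The mean went from 131 ± 2.63 to 197 ± 34.4 CPM (SD, n = 3 each), which is 0.59 as a log2 fold change (95% interval 0.35 to 0.82, edgeR adjusted p = 0.000768).

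TUBA4A (ENSG00000127824), an isotype abundant in muscle and platelets, lies on the minus strand of chromosome 2 from 219249711 to 219278170 and was barely detected. Its raw counts were 7, 21 and 7 with DMSO and 10, 35 and 20 with TH588, or 0.0852, 0.254 and 0.0747 against 0.374, 0.322 and 0.24 CPM. The groups overlapped, because DMSO replicate B was above TH588 replicate C. The log2 fold change of 1.14 (95% interval -0.09 to 2.37) did not pass the edgeR test (adjusted p = 0.114). Without DMSO replicate B, the highest of its group, it was 1.905 with an edgeR adjusted p of 0.0214, so the call depended on that library. TUBA4A passed the filter on low counts only through its TH588 libraries, which favours a rise, so no rise is read from that fit. STK16, on the opposite strand, shares 15.4% of the exon bases of TUBA4A and had 227 to 711 counts per library. Its part in the TUBA4A counts was not tested.

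The 3 abundant isotypes are close neighbours on chromosome 12 and close in sequence, which bears on how their reads can be assigned. Along the GENCODE canonical transcripts, the coding sequences were 97.2% identical between TUBA1A and TUBA1B, 96.3% between TUBA1A and TUBA1C and 97.3% between TUBA1B and TUBA1C, whereas TUBA4A was 85% to 86.3% identical to each. Of all 50-base windows in their exons, 25.6% (TUBA1A), 27.1% (TUBA1B) and 17.1% (TUBA1C) occurred elsewhere in GRCh38, falling to 11.8%, 16.7% and 8.8% at 100 bases. Exons of TUBA1A and TUBA1C also shared 490 bases on opposite strands, 14.3% of the exon bases of TUBA1A and 10.6% of those of TUBA1C. For TUBA1B, 36.6% of exon bases were shared with the antisense gene TUBA1B-AS1, which had 0 counts in every library. How the counting treated strand, overlapping exons and reads with several matches was not given in the sources used here, so the split of reads among the isotypes is uncertain, and the part of this in the opposite directions was not tested.

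Levels of different genes were compared per length, as CPM per kilobase of counted exon, and added up over the 4 alpha tubulins. The sum was 448, 533 and 581 with DMSO and 320, 263 and 231 with TH588. All TH588 libraries were below all DMSO libraries. The mean went from 521 ± 67.6 to 271 ± 44.8 CPM per kilobase (SD, n = 3 each), a ratio of 0.521. An exact two-sided permutation test gave p = 0.1, the smallest that 3 against 3 libraries allows, and 0.114 after adjustment over the 8 such tests made here.

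**Figure D2:**
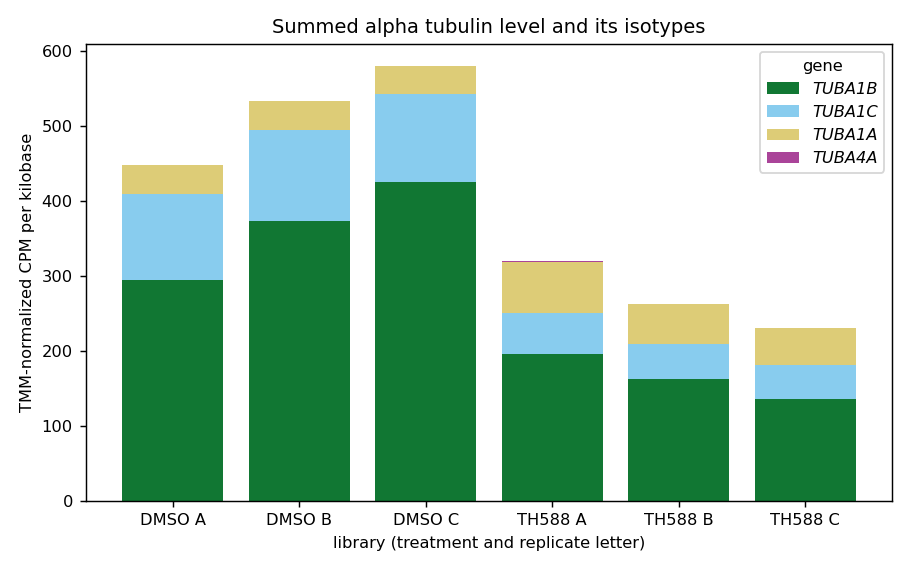
Stacked bars give the level of TUBA1B, TUBA1C, TUBA1A and TUBA4A in each library as TMM-normalized CPM per kilobase of counted exon length, on an axis that starts at 0. The bars of the TH588 libraries reach 231 to 320 against 448 to 581 with DMSO, their TUBA1A segment is the taller one, and TUBA4A is too low to be seen.

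The makeup of this sum moved as well. TUBA1A made up 8.64%, 7.27% and 6.44% of it with DMSO and 21.6%, 20.3% and 21.7% with TH588, a rise of 13.8 percentage points from 7.45% ± 1.11 to 21.2% ± 0.763 (SD, n = 3 each). The share of TUBA1B went from 69.7% ± 3.62 to 60.6% ± 1.43 and that of TUBA1C from 22.8% ± 2.52 to 18.1% ± 1.16, so TUBA1B remained the main isotype. TUBA4A stayed under 0.1% in every library. The groups did not overlap in any of the 4 shares. Each gave p = 0.1 in the exact two-sided permutation test (adjusted 0.114), again the smallest possible. For TUBA4A this is not read as a rise, because its own level, at 7 to 35 counts, overlapped between the groups. As parts of 1 sum, the 4 shares depend on each other and are not separate findings. A fall of TUBA1B and TUBA1C by itself raises the other shares: that of TUBA1A rose 2.85-fold, its level 1.5-fold.

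The ratio of TUBA1B to TUBA1A per kilobase was 7.63, 9.61 and 11.4 with DMSO and 2.85, 3.02 and 2.72 with TH588. The ratio of TUBA1C to TUBA1A was 2.94, 3.14 and 3.16 against 0.786, 0.892 and 0.888. Per kilobase, TUBA1A was thus the lowest of the 3 in every DMSO library and was above TUBA1C in every TH588 library. Without division by length, TUBA1A was below TUBA1C in every TH588 library, at 236, 183 and 172 against 251, 221 and 206 CPM. By contrast, the ratio of TUBA1B to TUBA1C overlapped between the groups, at 2.6, 3.06 and 3.6 with DMSO and 3.62, 3.39 and 3.06 with TH588 (exact two-sided permutation p = 0.5, adjusted 0.5), while both other ratios gave p = 0.1 in the same test (adjusted 0.114).

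The promoters of the 3 isotypes are shown because these neighbours did not move together. Each line gives the 200 bases before the transcription start from RefSeq (GRCh38.p14), at chr12:49189081-49189280 for TUBA1A (minus strand), chr12:49131396-49131595 for TUBA1B (minus strand) and chr12:49264882-49265081 for TUBA1C (plus strand). Capitals mark CCAAT, a common promoter element read by the factor NF-Y, and TTTGAA, the core of an element (CHR) known from cell cycle genes, on either strand.
TUBA1A: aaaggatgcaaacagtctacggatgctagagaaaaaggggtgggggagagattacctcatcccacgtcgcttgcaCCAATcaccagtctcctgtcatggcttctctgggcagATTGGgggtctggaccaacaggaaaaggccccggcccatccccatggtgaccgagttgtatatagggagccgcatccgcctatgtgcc
TUBA1B: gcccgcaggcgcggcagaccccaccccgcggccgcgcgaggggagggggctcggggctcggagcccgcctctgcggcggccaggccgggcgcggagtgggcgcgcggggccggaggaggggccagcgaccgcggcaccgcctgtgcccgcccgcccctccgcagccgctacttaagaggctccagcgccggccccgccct
TUBA1C: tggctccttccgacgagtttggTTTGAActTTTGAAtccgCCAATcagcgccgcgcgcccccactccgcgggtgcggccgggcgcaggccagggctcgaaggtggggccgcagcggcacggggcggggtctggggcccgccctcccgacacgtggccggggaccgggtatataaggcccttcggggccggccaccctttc
In the 250 bases before the start, TUBA1A held 2 CCAAT matches and no TTTGAA, TUBA1C held 1 CCAAT and 2 TTTGAA, and TUBA1B held neither. CCAAT occurs in 32% and TTTGAA in 13.3% of 35116 RefSeq promoter windows of that length, so each is a common match. Promoter entries matched all 10 genes: TTTGAA was also found once for TTC5, and CCAAT 4 times for TBCB, 2 times for TBCC and once for TBCE. TUBA4A, TBCA and TBCD held neither string. TUBA1C and TBCB had 3 promoter entries each and TBCD had 2, of which only the entry nearest the canonical transcript start was read. The 2 genes that fell most, TUBA1B and TUBA1C, shared neither string in the windows read. Any part of the promoters in the changes was not tested.

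TTC5 (ENSG00000136319), the factor that starts tubulin mRNA decay, lies on the minus strand of chromosome 14 from 20256558 to 20305994. It was measured at 17.3, 16.6 and 18.2 CPM with DMSO and 14.5, 12.4 and 12 CPM with TH588. All TH588 libraries were below all DMSO libraries, and replicate A was again the highest of them. The mean went from 17.4 ± 0.81 to 13 ± 1.34 CPM (SD, n = 3 each), which is -0.43 as a log2 fold change (95% interval -0.66 to -0.19, edgeR adjusted p = 0.00594).

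The cofactors TBCA and TBCB handle single tubulin subunits, TBCA the beta and TBCB the alpha chain. TBCA (ENSG00000171530, chromosome 5, 77691166 to 77868780, minus strand) was measured at 258, 257 and 260 CPM with DMSO and 240, 184 and 196 CPM with TH588. The DMSO libraries were nearly level, and all TH588 libraries were lower, replicate A the least so. The log2 fold change was -0.33 (95% interval -0.54 to -0.11, edgeR adjusted p = 0.0149). The call was lost without DMSO replicate C (adjusted p = 0.0574), TH588 replicate B (0.0501) or TH588 replicate C (0.0703), with fold changes still below 0.

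TBCB (ENSG00000105254, chromosome 19, 36114289 to 36125947, plus strand) was measured at 47.1, 48.1 and 44.6 CPM with DMSO and 38.9, 40.6 and 40.7 CPM with TH588. The groups did not overlap, with the lowest DMSO value a few CPM above the highest TH588 value. The log2 fold change was -0.22 (95% interval -0.38 to -0.05, edgeR adjusted p = 0.034), and 12 of 15 alternative settings left it outside the threshold. Of its exon bases, 12.5% were shared with POLR2I on the opposite strand.

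TBCD and TBCE form the core of the machine that joins or splits the dimer, TBCD holding beta and TBCE alpha tubulin. TBCD (ENSG00000141556, chromosome 17, 82752064 to 82945922, plus strand) was measured at 279, 258 and 274 CPM with DMSO and 208, 254 and 229 CPM with TH588. The groups did not overlap but came close, at TH588 replicate B and DMSO replicate B. The log2 fold change of -0.23 (95% interval -0.42 to -0.04) was just within the threshold (edgeR adjusted p = 0.0452), and 11 of 15 alternative settings left it outside. Of the exon bases of TBCD, 5.81% were shared with B3GNTL1 on the opposite strand, which had 138 to 716 counts per library.

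TBCE (ENSG00000284770, chromosome 1, 235367360 to 235452443, plus strand) was measured at 8.09, 8.93 and 8.9 CPM with DMSO and 7.43, 7.46 and 8.12 CPM with TH588. TH588 replicate C was above DMSO replicate A, so the groups overlapped. The log2 fold change was -0.17 (95% interval -0.42 to 0.08, edgeR adjusted p = 0.239). An overlapping gene without a symbol, ENSG00000285053, shares 17.9% of the exon bases of TBCE on the same strand and had 1 to 22 counts per library. B3GALNT2, on the opposite strand, shares 3.36% and had 1443 to 5833 counts per library, against 199 to 834 for TBCE.

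TBCC, which triggers release of the finished dimer by setting off GTP cleavage in beta tubulin, has its whole transcript in a single exon (ENSG00000124659, chromosome 6, 42744481 to 42746096, minus strand). It was measured at 10.4, 8.83 and 9.02 CPM with DMSO and 9.3, 8.42 and 6.97 CPM with TH588. The groups overlapped, and the log2 fold change was -0.20 (95% interval -0.5 to 0.09, edgeR adjusted p = 0.229). Its interval includes both no change and falls as large as those of TBCA, TBCB and TBCD, so the 5 cofactors cannot be ordered by their fold changes.

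**Figure D3:**
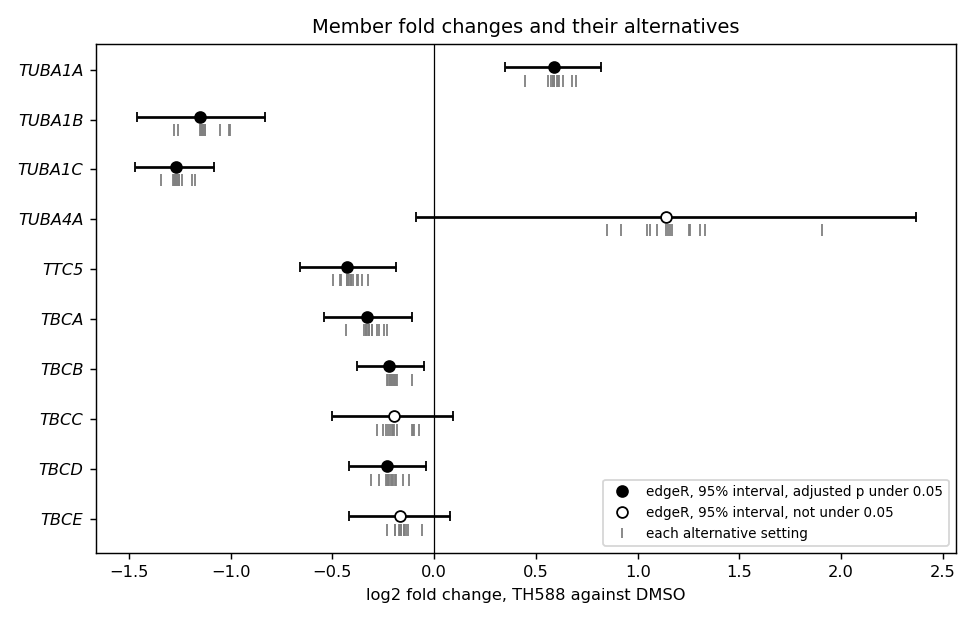
Circles give the log2 fold change of TH588 against DMSO for each gene with its 95% interval, filled where the edgeR adjusted p is under 0.05, and grey ticks give the value under each alternative setting. The interval of TUBA1A lies wholly above 0, and those of TUBA1B, TUBA1C and TTC5 lie wholly below it. The cofactors cluster just below 0, with the intervals of TBCA, TBCB and TBCD wholly below it and those of TBCC and TBCE across it.

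TUBA1A, TUBA1B, TUBA1C and TTC5 kept their direction and their call in all 15 alternative settings, over ranges of 0.447 to 0.695, -1.28 to -1.004, -1.342 to -1.176 and -0.498 to -0.327 on the log2 scale. When libraries were scaled by library size only, the median of all genes tested moved from 0.019 to 0.126, and the higher genes made up 60.4% of calls in place of 48.9%. Under that scaling TBCB was at -0.11 and TBCD at -0.12, both outside the threshold. TH588 replicate A, the shallowest library, held the highest TH588 value of TUBA1A, TUBA1B, TUBA1C, TUBA4A, TTC5, TBCA and TBCC and the lowest of TBCB, TBCD and TBCE. Without it the directions of all 10 stayed as they were, the calls of TUBA1A, TUBA1B, TUBA1C, TTC5 and TBCA were kept, and those of TBCB (adjusted p = 0.0557) and TBCD (0.118) were lost.

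Per kilobase of counted exon, the 10 genes covered a wide range of levels. With DMSO, the order from the top was TUBA1B (365 ± 65.4 CPM per kilobase), TUBA1C (118 ± 4.09), TBCA (84.6 ± 0.479), TUBA1A (38.3 ± 0.768), TBCD (20 ± 0.827), TBCB (14 ± 0.545), TBCC (5.83 ± 0.539), TTC5 (1.79 ± 0.0834), TBCE (0.695 ± 0.0383) and TUBA4A (0.0339 ± 0.0247; SD, n = 3 each). No neighbours in that order overlapped among the DMSO libraries. With TH588, TUBA1C moved from the second to the fourth place, at 48.8 ± 4.93 CPM per kilobase behind TBCA (67.6 ± 9.54) and TUBA1A (57.5 ± 10). The ranges of TBCA (60.2 to 78.4) and TUBA1A (50.2 to 69) overlapped there, as did those of TUBA1A and TUBA1C (44.5 to 54.2), and the other places were unchanged. The length used matters: per kilobase of the canonical transcript, an alternative chosen after seeing the data, TBCA came before TUBA1C with DMSO already, at 389 to 394 against 186 to 200 CPM per kilobase, TBCB came before TBCD, and with TH588 the range of TUBA1A (103 to 141) lay above that of TUBA1C (73.1 to 88.9).

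**Figure D4:**
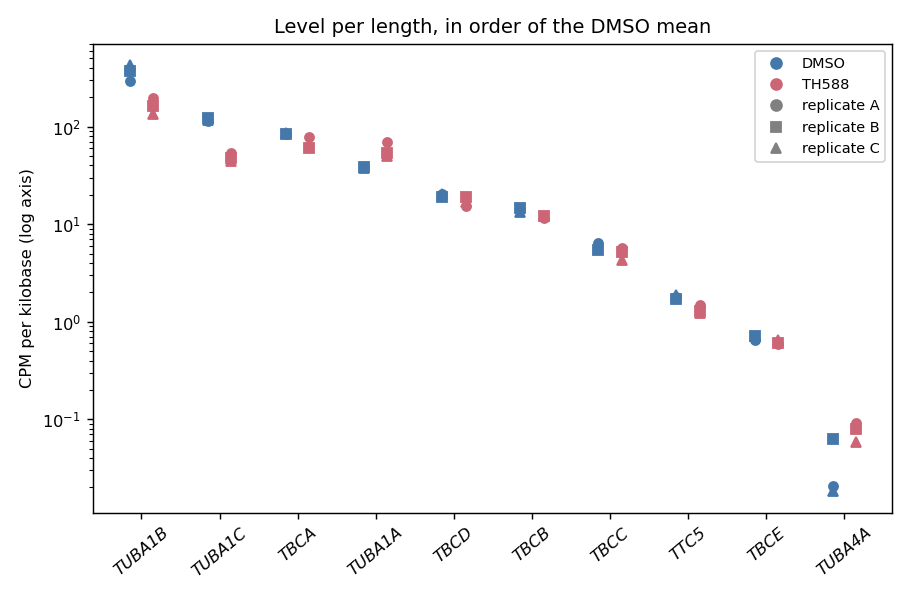
Points give the level of each gene in each library as CPM per kilobase of counted exon length on a log axis, blue for DMSO and red for TH588, with genes in order of the DMSO mean. TUBA1B is highest and TUBA4A lowest under both treatments, and TUBA1C, TBCA and TUBA1A come together with TH588.

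Across the 6 libraries, the genes whose log2 CPM followed TUBA1B most closely among 6685 genes of moderate or higher abundance were PABIR2 (Pearson r = 0.9949), ZNF266 (0.9936) and CLCC1 (0.9919). Such values are common in a design with 1 large contrast, since 1413 of those genes had an r over 0.9. Among the 10, r with TUBA1B was 0.97 for TUBA1C, 0.96 for TTC5 and 0.88 for TBCA, between 0.61 and 0.80 for the other cofactors, -0.65 for TUBA4A and -0.74 for TUBA1A. These values describe 6 libraries that share the treatment contrast, and no test was made on them.

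The other genes of the pathway were read from lists by role. Of 6 further alpha tubulin genes, 4 were too low to be tested and the other 2, TUBA3D and TUBA3E, were not called (also by DESeq2 and limma-voom, and with 0 of the 2 at an unadjusted p under 0.05), so the 4 alpha tubulins described above hold nearly all of the alpha tubulin counts: adding the 6 left the ratio of summed levels at 0.522. Of 9 beta tubulins, 8 were tested, 2 of which were higher and 2 lower. TUBB, the main beta tubulin of dividing cells, was measured at 1791, 1888 and 1953 CPM with DMSO and 665, 596 and 571 CPM with TH588, a log2 fold change of -1.62 (edgeR adjusted p = 5.98e-08). TUBB4A ran from 19.6 to 23.9 CPM with DMSO and from 28.9 to 31.5 CPM with TH588, a log2 fold change of 0.50 (edgeR adjusted p = 0.00124). These counts are near the shares over all genes tested, 24.2% higher and 25.3% lower. The other called genes, TUBB4B (lower, log2 fold change -0.69) and TUBB8 (higher, 1.29, at 1.56 to 4.93 CPM), were named after their values were seen.

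Among the gamma, delta and epsilon tubulins, which serve at microtubule ends and centrioles, 1 of 4 was higher and 2 were lower. These counts stand beside 24.2% higher and 25.3% lower over all genes tested. TUBG2 ran from 22.4 to 26.7 CPM with DMSO and from 46.6 to 53.4 CPM with TH588 (log2 fold change 1.03, edgeR adjusted p = 2.82e-06), whereas TUBG1, its more abundant paralog, fell by 0.54 on the log2 scale (edgeR adjusted p = 0.000326). TUBE1 was the other called gene, at -0.54, and was named after its value was seen.

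Downstream of TTC5, 11 genes for SCAPER and the CCR4-NOT complex were tested, with 2 higher, 5 lower and 4 not called. Their median log2 fold change was -0.12. CNOT7, a catalytic deadenylase subunit, ran from 74.6 to 88.6 CPM with DMSO and from 44 to 49 CPM with TH588 (log2 fold change -0.85, edgeR adjusted p = 8.77e-06). CNOT8, its close paralog, ran from 29.4 to 32.3 CPM with DMSO and from 49.6 to 54.4 CPM with TH588 (log2 fold change 0.76, edgeR adjusted p = 1.02e-05). These paralogs moved opposite ways, while 24.2% of all genes tested were higher and 25.3% lower. Under scaling by library size only, 2 of the 11 were lower in place of 5. SCAPER, which links TTC5 to the complex and is named outside the rule for its role, was measured at 42.8, 45.3 and 44.5 CPM with DMSO and 35.7, 35.1 and 35.4 CPM with TH588, a log2 fold change of -0.32 (edgeR adjusted p = 0.00388).

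Upstream of the cofactors, all 8 CCT chaperonin genes tested were lower, with log2 fold changes from -0.95 to -0.60 and a median of -0.75. Over all genes tested, 25.3% were lower. TCP1 was measured at 658, 659 and 711 CPM with DMSO and 371, 352 and 328 CPM with TH588 (log2 fold change -0.95, edgeR adjusted p = 1.63e-06). All 8 stayed lower and called in all 15 alternative settings. Of 6 genes of prefoldin, which hands tubulin chains to CCT, 1 was higher and 2 were lower, with a median of -0.25. These counts are near the shares over all genes tested, 24.2% higher and 25.3% lower. VBP1 fell by 0.48 on the log2 scale (edgeR adjusted p = 0.000989), PFDN5 was higher by 0.35 (edgeR adjusted p = 0.00835), and the number of lower genes went from 1 to 4 over the alternatives, with 4 when TH588 replicate A was left out.

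Of 5 partners and relatives of the cofactors, 2 were higher, 0 lower and 3 not called. Over all genes tested, 24.2% were higher and 25.3% lower. The median log2 fold change of the 5 was 0.21. TBCK, a kinase with a TBC1 domain that is no relative of the tubulin cofactors, had been listed with them and was left out after the data were seen; with it the list had 3 higher of 6 and a median of 0.28. ARL2, the small GTPase that works with TBCD and TBCE, ran from 3.02 to 4.08 CPM with DMSO and from 4.18 to 6.79 CPM with TH588, a log2 fold change of 0.73 (edgeR adjusted p = 0.0055). RP2 (0.53), a relative of TBCC, was the other higher gene and was named after its value was seen. At an unadjusted p under 0.05, 0 of the 5 were lower in the edgeR fit. At an adjusted p under 0.05, DESeq2 and limma-voom called 0 lower, and 1 was called lower without TH588 replicate A or without TH588 replicate C.

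Of 9 enzymes that modify alpha tubulin, 5 were higher and 2 were lower, beside 24.2% higher and 25.3% lower over all genes tested. The median log2 fold change of the 9 was 0.46. AGBL5, a carboxypeptidase that trims glutamates from tubulin tails, ran from 18.7 to 21.6 CPM with DMSO and from 40.6 to 44.4 CPM with TH588 (log2 fold change 1.06, edgeR adjusted p = 1.47e-06). VASH1, a vasohibin that removes the last tyrosine of alpha tubulin, fell by 0.40 (edgeR adjusted p = 0.0351), and TTL, the ligase that puts it back, fell by 0.37 (edgeR adjusted p = 0.00231). HDAC6 (1.02) and SIRT2 (0.83), which remove the acetyl group from alpha tubulin, ATAT1 (0.46), which adds it, and AGBL2 (0.50) were the other higher genes. TTL and these 4 were named after their values were seen, and 1 gene in place of 2 was lower in 8 of the 15 alternatives.

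**Figure D5:**
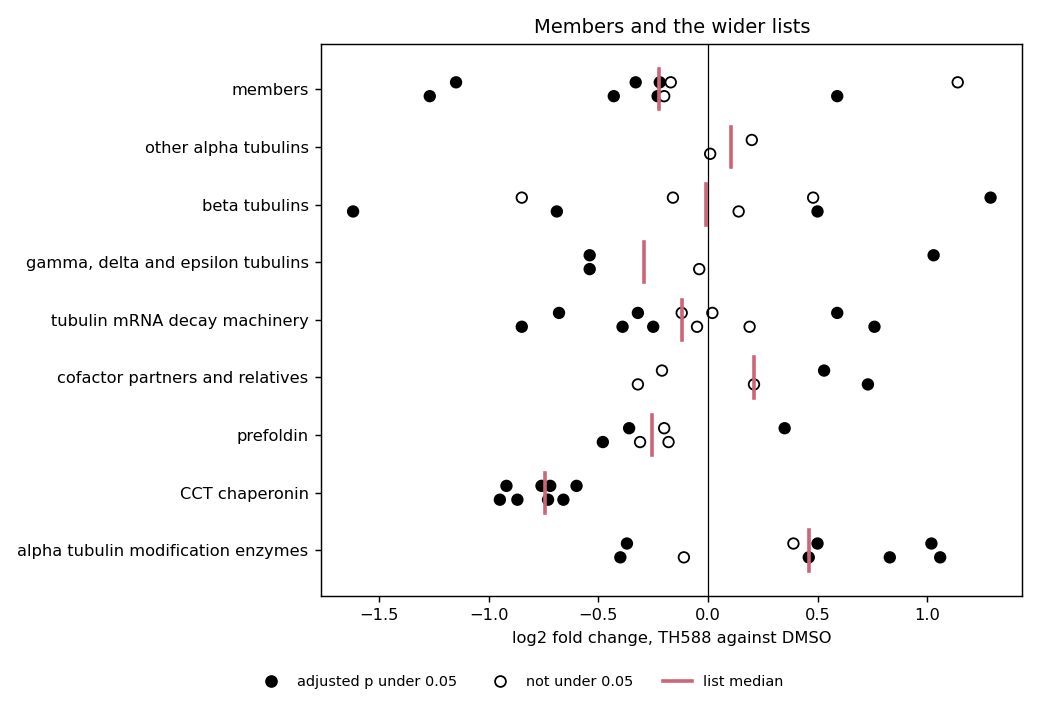
Each circle is the log2 fold change of 1 tested gene, TH588 against DMSO, filled where the edgeR adjusted p is under 0.05, in rows by list with the list median as a red line. All 8 CCT chaperonin genes lie between -0.95 and -0.60, and the 10 genes described here spread from -1.27 to 1.14.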

How the data were processed

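RNA of A2780 cells (0.1% DMSO or 6 µM TH588, 48 h, 3 biological replicates each) was sequenced from TruSeq libraries. The authors aligned reads to GRCh38 with TopHat and counted them per gene with featureCounts 1.4.6 of the Subread package (versions and tools as in the submitters' processing notes), and deposited the raw counts without normalization. Their methods name UCSC gene models, whereas the table carries Ensembl identifiers. The handling of strand, overlaps and multiple matches was not given in the sources used here.

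Genes were filtered with edgeR 4.0.16 (filterByExpr defaults), scaled by TMM, and compared with the quasi-likelihood test in R 4.3.3, using an adjusted p under 0.05. Standard errors behind the 95% intervals come from the same fit, on the log2 scale. The authors' own comparison used DESeq2, which was an alternative here (DESeq2 1.42.0), as was limma 3.58.1 with voom. The other alternatives were scaling by library size only or by DESeq2's size factors, no filter on low counts, a minimum of 10 counts in every library, thinning all libraries to the shallowest total, an adjusted p under 0.01, the replicate letter as a block, and leaving out each library. Levels per kilobase used the exon length in the table, and the canonical transcript length was an alternative chosen after seeing the data. The edgeR, DESeq2 and limma-voom steps were run on simulated counts with known changes, and a pass condition was set for edgeR only. In that simulation few genes changed and the spread came from the DMSO libraries alone, unlike these data. Replicates differed by far more than sampling noise (chi-square per degree of freedom 23.5 to 165), so each library counted once. Deviations of libraries with the same letter did not correlate (-0.07, -0.08 and 0), so the letters were not treated as pairs.

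The members and the wider lists were chosen with earlier results of these data known. All members are named. 1 of the lists is not reported here. From each list, the called gene with the largest rise and the largest fall are named, if the mean log2 CPM reached 2 and the groups did not overlap. Likeness to TUBA1B was computed over genes whose mean log2 CPM reached 4, with a prior count of 2. Sequences came from GRCh38, GENCODE and RefSeq tables. Depth was between 28537837 and 99074175 counts per library, at which 3 counts correspond to 0.0303 to 0.105 CPM, and such floors cover counting error only.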

Additional observations from a re-analysis of the deposited data

How the results depend on the processing

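Over 15 alternatives, the number of genes called went from 5831 to 8225, and no member changed sign. With 6 members lower at first, 3 passed at an adjusted p under 0.01, and 3 to 4 when each library was left out in turn. There were 3 without DMSO replicate C and without TH588 replicate C. Over all genes, 7852 of the 15844 tested were called at first, and 5831 at an adjusted p under 0.01. Leaving out each library called 6805 to 7914 of 16126 to 16410 genes tested. The number of members higher, 1, was 1 to 2 when each library was left out, with 2 without DMSO replicate B. The gene added there was TUBA4A, whose highest DMSO count was in that library, and no rise is read from it. The calls lost were those of TBCA (4 alternatives), TBCB (12) and TBCD (11). The cause was not tested. Adding the replicate block gave 7195 called genes, 7129 of them also called without it, and 4 members were lower, as TBCB (-0.22, adjusted p = 0.0903) and TBCD (-0.24, adjusted p = 0.0912) lost their call, and no other member's call changed. The ratio of the summed alpha tubulin levels was between 0.478 and 0.567 over 10 alternatives. TUBA4A had no value under the filter of at least 10 counts in every library. Its 7 to 35 counts limit its precision, and the similar sequences of TUBA1A, TUBA1B and TUBA1C limit theirs at any depth.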
